A study of Mus musculus with 24 samples.

Results

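The liver of female BALB/c mice that carried 4T1 cells was compared between a high-fat and a control diet, with 3 arrays per diet, which are 6 of the 24 arrays of the study. The 4T1 line is a mouse mammary carcinoma line that grows in the mammary fat pad and spreads to other organs. Mice arrived at 3 weeks of age, had 1 week to settle, and then received their control or high-fat diet over 16 weeks. After that, 4T1 cells were placed in the mammary fat pads, both groups stayed on their diet, and liver was taken 14 days later at 22 weeks of age. The groups are thus 4T1 on control diet and 4T1 on high-fat diet, and what they share is sex, strain, age and the injected cells. The study also holds sham-injected livers on the same diets and the lungs of all 4 kinds of mice. Transplanted 4T1 cells come from a line, not from tumours that arose in these mice, and the labels do not say whether each array is a separate mouse, so the spread behind each p-value is that between these samples, which may be technical. Messenger RNA was measured on Illumina bead arrays of 45281 probes. Probes with a detection p-value under 0.05 on 3 or more of the 6 arrays were kept, which left 18516 probes (40.89%). They represent 10411 named genes, each by its brightest kept probe.

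Liver turns sugar into fatty acids, and the enzymes of that route are switched on at the transcript level by insulin and carbohydrate and are known to be lower when dietary fat replaces carbohydrate. Liver also keeps a circadian clock, in which CLOCK and BMAL1 (Arntl) drive the Per, Cry and Nr1d genes that in turn repress them, and feeding sets its phase. Tumour-bearing mice, those with 4T1 in particular, are known for large numbers of granulocytes and an acute phase response in liver.

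The 6 arrays were alike in the share of probes detected. Between 40.4 and 41.47% of probes were above background on each of them, and the replicate SD over kept probes was 0.0756 in log2 units for control-diet and 0.09402 for high-fat arrays. Median signal before normalization was 167.7 on high-fat replicate 3 and 155.5 to 160 on the other arrays. Of 7 defining hepatocyte markers, 6 were above background on all 6 arrays and Tat on 5, and the diet test called none of them. All 7 neutrophil markers were above background on every array. Of the bile duct markers, Krt19 and Epcam were above background on none of the 6 arrays, Krt7 on 5 and Sox9 on all 6. Of the adipocyte markers, Plin1 was above background on none, Adipoq on 3 and Lep on all 6. Of the acinar pancreas markers, Ctrb1, Prss2 and Cpa1 were above background on none and Cela1 on all 6. For B cells these were none for Ms4a1 and 6 for Cd79b, and for 4T1 or other epithelium none for Krt5, 3 for Krt14 and 6 for both Krt18 and Cdh1. In a whole-tissue sample, fewer cells of a type and less RNA per cell cannot be told apart.

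High-fat feeding changed 304 of 10411 genes in 4T1 liver (2.92%), at an adjusted p under 0.05 in limma's moderated test with Benjamini-Hochberg adjustment over all kept probes. Of these, 135 genes (1.30%) rose and 169 (1.62%) fell. Over probes, 475 were called (2.57%), 211 higher (1.14%) and 264 lower (1.43%). Most changes were small. The median size among called genes was 0.35 on the log2 scale, and only 6 genes rose and 11 fell at least 2-fold. Across all genes the median change was -0.0021. Values of the 2 diets did not overlap for any of the 304 called genes, but the same was true of 2293 genes (22.0%) in all. The number of calls depended on single arrays, ranging from 82 without control-diet replicate 1 to 446 without high-fat replicate 1, and it was 158, 131, 234 and 158 without control-diet replicates 2 and 3 and high-fat replicates 2 and 3. It was 77 after background correction of the signals with the 12 liver arrays together, the correction used wherever a corrected value is given, and 26 (65.4% higher, against 44.4%) with the 6 arrays alone. With median scaling in place of quantile normalization, the called genes split into 112 higher and 225 lower. Of the 15 genes with the largest increases and the 15 with the largest decreases, 26 were called whichever array was left out. Thrsp, Nnmt, Ugt1a5, Selenbp2 and Cish lost their call after background correction with the 12 liver arrays. With correction of the 6 arrays alone, those of the 30 still called were Aatk, Acacb, Acot3, Chrna4, Cyp17a1, Dnaic1, Gpc1, Hsd3b5, Saa3, Scd1 and Ubd. Saa3 and Ubd lost their call when all 12 liver arrays shared 1 estimate of the spread.

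**Figure D1:**
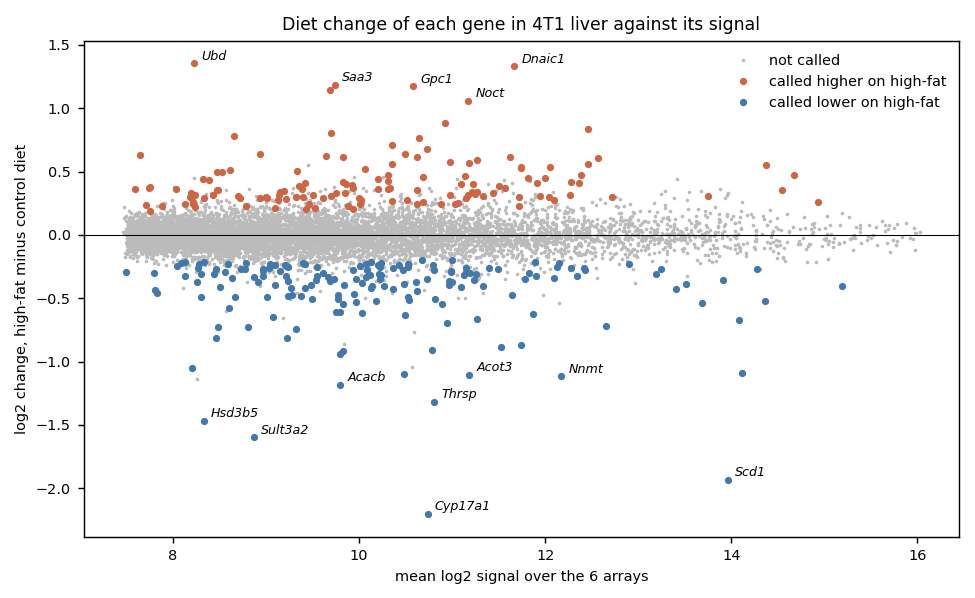
Log2 change (high-fat minus control diet, vertical axis) of each of 10411 genes in 4T1 liver against its mean log2 signal over the 6 arrays (horizontal axis). Grey points are genes not called, orange points the 135 genes called higher and blue points the 169 called lower on the high-fat diet, and the genes farthest from 0 are Cyp17a1 and Scd1, both lower.

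Several genes of fatty acid synthesis were lower on the high-fat diet. Of 26 measured members of a list of fatty acid synthesis and desaturation, 8 fell and none rose, against 1.62% of all genes that fell. Scd1, the stearoyl-CoA desaturase that makes oleate from stearate, had log2 signals of 14.79, 15.02 and 14.97 on the control-diet arrays and 12.87, 13.27 and 12.85 on the high-fat arrays. The groups were far apart and the desaturase fell 3.81-fold (log2 -1.93 ± 0.11 SE, n = 3 per diet, limma adjusted p = 6.22e-05). Elovl6, which lengthens palmitate to stearate, had 10.91, 11.31 and 10.88 on the control diet against 9.86, 10.13 and 9.81 on high-fat, with no overlap, and fell 2.15-fold (adjusted p = 0.00237). Acacb, the mitochondrial acetyl-CoA carboxylase whose product restrains fatty acid oxidation, had 10.12, 10.64 and 10.41 on the control diet against 9.27, 9.27 and 9.07 on high-fat and fell 2.27-fold (adjusted p = 0.00190). Thrsp (Spot14), a thyroid hormone-responsive activator of lipogenesis, had 11.63, 11.70 and 11.07 on the control diet against 9.72, 10.78 and 9.95 on high-fat. High-fat replicate 2 lay close to control-diet replicate 3, and the 2.49-fold decrease of Thrsp (adjusted p = 0.0274) had an adjusted p of 0.136 without control-diet replicate 1.

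The remaining called members of that list, named here after their values were seen, were Aacs (acetoacetyl-CoA synthetase, log2 -0.69 ± 0.14), Lpin1 (lipin, a phosphatidate phosphatase, -0.49 ± 0.10), Acly (ATP citrate lyase, -0.39 ± 0.069) and Pnpla3 (a lipid droplet acylhydrolase, -0.30 ± 0.053), with limma adjusted p from 0.0208 to 0.0435. With background correction the log2 change of Pnpla3 was -0.93. Fasn, fatty acid synthase itself, gave 7.67, 7.71 and 7.61 on the control diet against 7.45, 7.57 and 7.43 on high-fat, which did not overlap, but its adjusted p was 0.128 and only 1 high-fat array was above background. Srebf1, the transcription factor that drives these genes, overlapped between diets (log2 -0.24, adjusted p = 0.335), as did the polyunsaturated desaturase Fads1 (-0.058, adjusted p = 0.681). The list's median change was -0.13, against -0.0021 over all genes, and 20 of its 26 members were lower. In the fit without control-diet replicate 1, 3 members were called lower, and after background correction 4 were. Summed signal of the list was 184200 to 195900 on the control-diet arrays and 148500 to 158900 on the high-fat arrays, and those ranges did not overlap. This sum weights bright genes such as Scd1 most and is not separate from their calls. The mean log2 signal of the members was 11.04 to 11.16 on the control-diet arrays and 10.69 to 10.89 on the high-fat arrays.

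None of 19 cholesterol synthesis and uptake genes was called (median 0.059). The largest of their changes was that of Cyp51, lanosterol demethylase (log2 0.37, adjusted p = 0.160). Among 32 PPARα targets and fatty acid oxidation genes (median 0.016), 2 fell and none rose, against 1.62% and 1.30% of all genes. They were Pex11a, a peroxisome division factor (log2 -0.47 ± 0.070, limma adjusted p = 0.00939), and Decr1, a mitochondrial reductase needed for unsaturated fatty acids (-0.39 ± 0.070, adjusted p = 0.0213). Neither was called without control-diet replicate 1.

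Acyl-CoA thioesterases, which release free fatty acids from CoA, had 2 of 13 members lower, against 1.62% of all genes (median -0.059). Acot3, a peroxisomal member, had 11.82, 11.72 and 11.66 on the control diet against 10.44, 10.65 and 10.80 on high-fat, with no overlap, and fell 2.15-fold (adjusted p = 0.000526 in limma). Acot4 fell by less (log2 -0.37 ± 0.065, adjusted p = 0.0198), and without control-diet replicate 1 Acot3 alone was called. These genes lie side by side in the mouse genome and are close in sequence, so a probe may read more than its own gene. Among 18 lipid droplet genes only Pnpla2, the adipose triglyceride lipase, was called (log2 -0.30 ± 0.051, adjusted p = 0.0186, and 0.101 without control-diet replicate 1). Apoa4, an apolipoprotein of triglyceride-rich particles, was the only call among 24 lipoprotein and sterol efflux genes (-0.54 ± 0.090, adjusted p = 0.0164, and 0.0723 without control-diet replicate 1).

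Bile acid synthesis enzymes were not called, and 2 bile acid exporters rose among 21 measured genes, against 1.30% of all genes (median 0.011). Abcb11, the canalicular bile salt export pump, had 11.54, 11.58 and 11.59 on the control diet against 11.84, 11.86 and 11.89 on high-fat and rose 1.23-fold (limma adjusted p = 0.00895). Abcc3, a basolateral exporter of conjugates, had 11.77, 11.84 and 11.70 on the control diet against 12.10, 12.19 and 12.38 on high-fat and rose 1.37-fold (adjusted p = 0.0140). Neither gene's groups overlapped, but without control-diet replicate 1 neither was called (adjusted p 0.0631 and 0.0786). Cyp7a1, the rate-limiting enzyme of bile acid synthesis, overlapped between diets (log2 0.011 ± 0.16, adjusted p = 0.984). Of 24 genes of gluconeogenesis, glycolysis and insulin response, Khk, the ketohexokinase that phosphorylates fructose, fell (log2 -0.31 ± 0.056, adjusted p = 0.0231, and 0.114 without control-diet replicate 1). No other gene of that list was called, and 1.62% of all genes fell. Ppp1r3g, a glycogen-targeting phosphatase subunit, had 8.61, 8.18 and 9.68 on the control diet against 7.66, 7.70 and 7.69 on high-fat. Its control-diet values ranged widely, and its adjusted p was 0.0836 despite groups that did not overlap.

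The largest decrease on the deposited scale was that of Cyp17a1, the 17α-hydroxylase of steroid hormone synthesis. It had 11.85, 11.79 and 11.87 on the control-diet arrays and 9.38, 9.84 and 9.68 on the high-fat arrays. Replicates lay close together on both diets, and the gene fell 4.61-fold (log2 -2.20 ± 0.098, limma adjusted p = 1.24e-05). Sult3a2, a sulfotransferase, had 9.67, 9.67 and 9.66 on the control diet against 8.44, 7.87 and 7.89 on high-fat and fell 3.03-fold (adjusted p = 0.000668). Hsd3b5, a 3-ketosteroid reductase that is male-biased in mouse liver, had 8.61, 9.04 and 9.53 on the control diet against 7.62, 7.61 and 7.55 on high-fat and fell 2.77-fold (adjusted p = 0.00355). Both genes were dim on the high-fat diet. The deposited signals are not corrected for background, which understates fold changes of dim probes, and with correction their log2 changes were -2.56 and -3.10, against -2.45 for Cyp17a1.

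In all, 4 of 18 measured steroid-metabolizing and sex-biased liver genes fell and 1 rose, against 1.62% and 1.30% of all genes (median -0.066). Besides the genes above, Cyp2a5, a coumarin hydroxylase, fell (log2 -0.67 ± 0.090, limma adjusted p = 0.00588). All 4 of its other kept probes were called too (log2 -0.85 to -0.64), but the Cyp2a genes are near-identical and their signals may be shared. Selenbp2, a selenium-binding protein, had 10.21, 10.16 and 10.40 on the control diet against 11.35, 10.83 and 10.89 on high-fat and rose 1.70-fold (adjusted p = 0.0142, and 0.0859 without control-diet replicate 1). Of 6 measured major urinary proteins, the lipocalins that carry pheromones, 3 fell and none rose (median -0.27). They were Mup5 (-0.49), Mup3 (-0.41) and Mup21 (-0.37), with adjusted p from 0.0184 to 0.0377, and none was called without control-diet replicate 1. With background correction Mup5 had -0.79. These genes are near copies. The probes of Mup2 ran from log2 -0.93 to 0.34, so which gene of the family a probe reads is uncertain.

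Cytochrome P450 genes of drug and fatty acid metabolism went both ways (median 0.013). Of 33 genes, 3 were higher and 3 lower, against 1.30% and 1.62% of all genes. The increases were all of Cyp2c genes. The other Cyp2c genes measured on the list were not called, with log2 changes from -0.048 to 0.060. Cyp2c54 had 8.35, 8.33 and 8.12 on the control diet against 9.25, 8.91 and 8.99 on high-fat and rose 1.72-fold (limma adjusted p = 0.00332, log2 0.78 as deposited and 1.27 with background correction). Cyp2c50 rose by log2 0.48 ± 0.055 (adjusted p = 0.00323), and Cyp2c37 by 0.35 ± 0.050 (adjusted p = 0.00725). Cyp2a5, Cyp2g1 (-0.49 ± 0.088, adjusted p = 0.0231, and -0.94 with background correction) and Cyp2d40 (-0.32 ± 0.053, adjusted p = 0.0156) fell. Cyp2c37 and Cyp2d40 are named here after their values were seen. The counts were 2 higher and 1 lower without control-diet replicate 1.

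In the list of glutathione, glucuronide and sulfate conjugation, 6 of 43 genes fell and none rose, against 1.62% and 1.30% of all genes (median 0.00050). Beside Sult3a2 these were Ugt1a5 (1.91-fold lower, limma adjusted p = 0.0140) and Ugt1a2 (1.57-fold lower, adjusted p = 0.0218), glucuronosyltransferases whose transcripts share their last exons. Gstt3, a glutathione transferase, had 11.43, 11.66 and 11.72 on the control diet against 10.93, 11.04 and 10.85 on high-fat and fell 1.58-fold (adjusted p = 0.00348). The other two, chosen after their values were seen, were the glutathione transferase Gstm2 (log2 -0.43 ± 0.091) and the sulfotransferase Sult1c2 (-0.39 ± 0.055). Without control-diet replicate 1, 3 genes of the list were called lower. From the list of NRF2 antioxidant targets, 3 of 29 genes rose, against 1.30% of all genes, and the other 26 were not called (median 0.036). Those that rose were Ces1g, a carboxylesterase (log2 0.50), Abcc3 (0.45), already counted with the bile acid genes, and Ephx1, microsomal epoxide hydrolase (0.30). None of them was called without control-diet replicate 1.

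**Figure D2:**
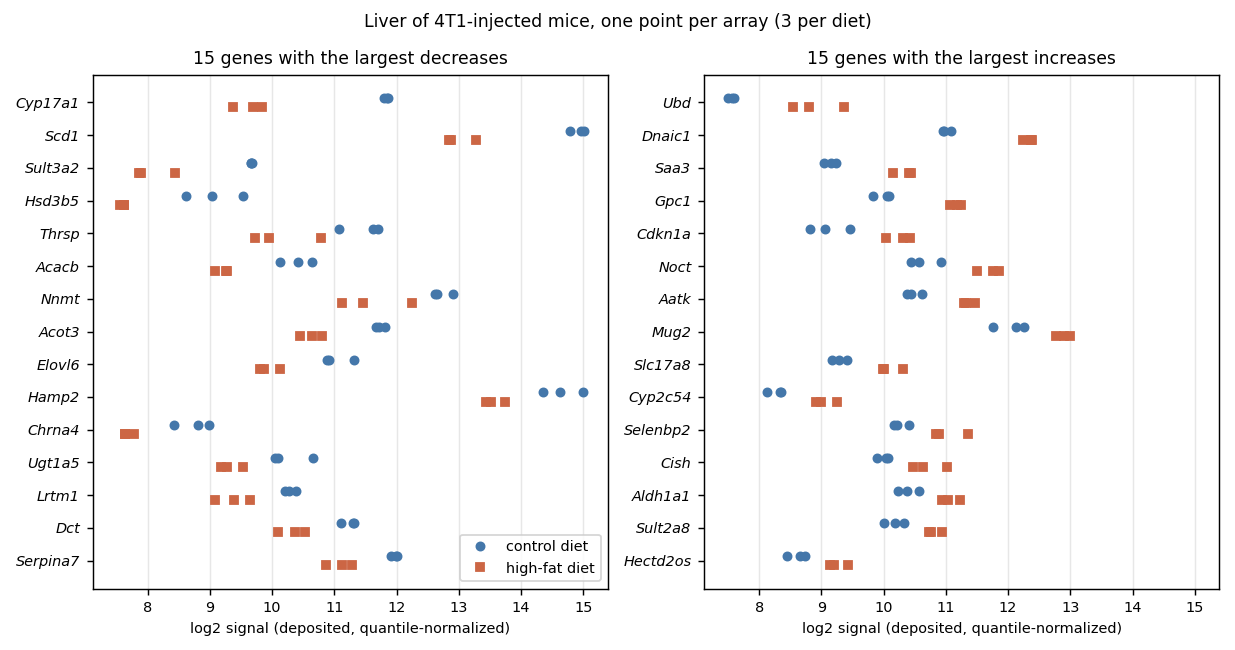
Deposited log2 signal (horizontal axis) on each of the 6 arrays for the 15 genes with the largest decreases (left) and the 15 with the largest increases (right), blue circles for control diet and orange squares for high-fat diet. No gene's groups overlap, and the gap between the diets is narrowest for Thrsp among the decreases.

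The largest increases on the deposited scale were those of Ubd, described with inflammation, and of Dnaic1. Dnaic1, an intermediate chain of the axonemal dynein of cilia, had 10.95, 10.97 and 11.08 on the control-diet arrays and 12.39, 12.37 and 12.23 on the high-fat arrays. It rose 2.52-fold with tight replicates (log2 1.33 ± 0.058, limma adjusted p = 1.24e-05), and its other kept probe was called as well. Gpc1, a heparan sulfate proteoglycan of the cell surface, had 10.06, 10.09 and 9.83 on the control diet against 11.25, 11.18 and 11.07 on high-fat and rose 2.26-fold (adjusted p = 0.000134). Cdkn1a, the p21 inhibitor of cyclin-dependent kinases, had 8.81, 9.46 and 9.06 on the control diet against 10.31, 10.04 and 10.42 on high-fat and rose 2.22-fold (adjusted p = 0.00505). Both groups of Cdkn1a were spread, but its lowest high-fat value lay above its highest control value. No other gene of 20 p53 targets was called, Fas for example having a log2 change of 0.22 (adjusted p = 0.0618). Over all genes, 1.30% were called higher. Aatk, a kinase named for apoptosis of myeloid cells, rose 1.84-fold, from 10.48 ± 0.12 to 11.36 ± 0.095 (mean log2 ± SD, n = 3, adjusted p = 0.000673). Slc17a8, a vesicular glutamate transporter, rose 1.75-fold (adjusted p = 0.00276).

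Mug2, a murinoglobulin that inhibits plasma proteinases, had 11.75, 12.12 and 12.26 on the control diet against 12.90, 12.76 and 12.99 on high-fat and rose 1.79-fold (limma adjusted p = 0.00620), though its family members are alike in sequence. Aldh1a1, which makes retinoic acid, rose 1.60-fold, from 10.39 ± 0.16 to 11.07 ± 0.15 (mean log2 ± SD, adjusted p = 0.00602). Sult2a8, a bile acid sulfotransferase of mouse liver that is not on the conjugation list, rose 1.55-fold (adjusted p = 0.00594). Hectd2os, a transcript from the strand opposite Hectd2, rose 1.55-fold (adjusted p = 0.00693). None of these 4 genes lost its call when any of the 6 arrays was left out.

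Among further decreases, Nnmt, nicotinamide N-methyltransferase, had 12.65, 12.91 and 12.61 on the control-diet arrays and 11.12, 12.25 and 11.47 on the high-fat arrays. High-fat replicate 2 lay well above the other high-fat values, and the 2.17-fold decrease (limma adjusted p = 0.0352) had an adjusted p of 0.136 without control-diet replicate 1. Chrna4, a nicotinic acetylcholine receptor subunit, had 8.42, 8.98 and 8.80 on the control diet against 7.64, 7.78 and 7.63 on high-fat and fell 2.07-fold (adjusted p = 0.00296). Its log2 change was -1.05 as deposited and -2.31 with background correction. Dct, dopachrome tautomerase of melanin synthesis, fell 1.88-fold (adjusted p = 0.00296), and Lrtm1, a leucine-rich repeat membrane protein, fell 1.89-fold (adjusted p = 0.00425). Serpina7, thyroxine-binding globulin, had 11.91, 12.00 and 11.99 on the control diet against 11.12, 10.86 and 11.28 on high-fat and fell 1.84-fold (adjusted p = 0.00237). Hamp2, a paralog of the iron hormone hepcidin, had 14.63, 14.35 and 14.99 on the control diet against 13.51, 13.44 and 13.74 on high-fat and fell 2.13-fold (adjusted p = 0.00432). Hepcidin itself (Hamp) overlapped between the diets (log2 -0.17 ± 0.089, adjusted p = 0.394), and the similarity of these 2 genes leaves it uncertain how far each probe reads only its own. Beside Hamp2, the iron transporter Slc11a2 was the only call among 20 iron genes (log2 0.37 ± 0.071, adjusted p = 0.0298, and 0.142 without control-diet replicate 1). That is 1 gene lower and 1 higher, against 1.62% and 1.30% of all genes.

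Core clock and clock output genes had calls in both directions, with 1 higher and 3 lower among 13 core genes and 2 higher and 5 lower among 18 output genes, against 2.92% of all genes called. Promoters of a clock repressor and of a clock activator that moved in opposite directions are shown first, from RefSeq on build GRCm38.p6, 250 bases before to 50 after a start site. Capitals mark CACGTG, the E-box bound by CLOCK and BMAL1, in Ciart (chr3:95882179-95882478, minus strand), which holds 3 of them, at -116, -58 and -44 from the start. In Arntl (chr7:113207261-113207560, plus strand) capitals mark AGGTCA, the half-site of nuclear receptors, REV-ERB and ROR included, found 1 time at 31. Its other RefSeq window, which starts at 113207215, holds none. Searched on both strands, CACGTG occurs in 7.15% of 32851 promoters of this length and AGGTCA in 16.3%. The windows of Dbp, Usp2 and Nr1d1, which fell too, hold no CACGTG. Windows of Fkbp5, which fell, and of the clock-list genes Per1, Tef, Lonrf3 and Tspan4, which were not called, do hold it. AGGTCA is also in windows of Nampt and Upp2, which fell, and of Clock, Nr1d2 and Per1, which were not called. No window of Noct or Cdkn1a, which rose, holds AGGTCA. A match describes the letters and does not show binding, and a missing match says only that the letters are not in the window.
Ciart: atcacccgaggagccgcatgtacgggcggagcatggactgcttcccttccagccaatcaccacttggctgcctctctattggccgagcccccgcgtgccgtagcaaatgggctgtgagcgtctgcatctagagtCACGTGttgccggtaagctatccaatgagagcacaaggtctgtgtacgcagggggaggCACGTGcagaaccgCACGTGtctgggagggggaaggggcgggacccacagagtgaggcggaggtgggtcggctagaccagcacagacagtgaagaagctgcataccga
Arntl: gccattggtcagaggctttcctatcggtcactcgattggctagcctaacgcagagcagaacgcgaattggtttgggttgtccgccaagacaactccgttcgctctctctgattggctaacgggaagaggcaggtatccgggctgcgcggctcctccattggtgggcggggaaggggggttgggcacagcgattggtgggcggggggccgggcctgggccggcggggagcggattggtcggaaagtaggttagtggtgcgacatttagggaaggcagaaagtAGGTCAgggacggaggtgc

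Ciart, a repressor of the CLOCK and BMAL1 complex, had log2 signals of 9.01, 8.82 and 8.78 on the control-diet arrays and 7.77, 8.35 and 8.06 on the high-fat arrays. The diets did not overlap, and Ciart fell 1.75-fold (log2 -0.81 ± 0.12, limma adjusted p = 0.0119, and 0.0767 without control-diet replicate 1). Its log2 change was -1.51 with background correction. Arntl, which encodes BMAL1, had 8.06, 8.42 and 8.34 on the control diet against 8.82, 8.71 and 8.78 on high-fat and rose 1.41-fold (adjusted p = 0.0178, log2 0.50 as deposited and 0.87 with background correction). Per2, a repressor of the same complex, had 11.21, 11.12 and 11.16 on the control diet against 10.44, 10.88 and 10.52 on high-fat and fell 1.46-fold (adjusted p = 0.0220, and 0.115 without control-diet replicate 1). Nr1d1, the REV-ERBα receptor that represses Arntl, had 8.60, 8.63 and 8.90 on the control diet against 8.38, 8.26 and 8.27 on high-fat and fell 1.33-fold (adjusted p = 0.0298, log2 -0.41 as deposited and -0.70 with background correction). The Nr1d1 call was lost in 5 of the 6 omissions of an array, with an adjusted p of up to 0.0814 without high-fat replicate 3. By contrast, Per1 (log2 -0.025 ± 0.14, adjusted p = 0.958), Per3 (-0.092, 0.477) and Clock (0.12, 0.425) overlapped between the diets. With background correction no core gene was called. The median over the core list was -0.092.

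Of the output genes, Dbp, a transcription factor at the head of clock output, had 13.09, 12.81 and 13.13 on the control-diet arrays and 12.22, 12.44 and 12.20 on the high-fat arrays. It fell 1.64-fold without overlap (limma adjusted p = 0.00440). Upp2, a uridine phosphorylase, had 12.31, 11.93 and 12.28 on the control diet against 11.28, 11.35 and 11.28 on high-fat and fell 1.83-fold (adjusted p = 0.00237), with its 3 other kept probes called too. Usp2, a deubiquitinase, had 9.77, 9.65 and 9.48 on the control diet against 8.45, 9.20 and 8.80 on high-fat. Its high-fat replicates were spread, and the 1.76-fold decrease (adjusted p = 0.0274) had an adjusted p of 0.139 without control-diet replicate 1. Noct, nocturnin, a phosphatase of NADP(H) with a nightly peak in liver, had 10.93, 10.43 and 10.57 on the control diet against 11.75, 11.86 and 11.50 on high-fat and rose 2.08-fold (adjusted p = 0.00332).

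Cdkn1a, already given, was the other output gene that rose, and Fkbp5, a glucocorticoid-induced co-chaperone (log2 -0.55 ± 0.079), and Nampt, of NAD synthesis (-0.21 ± 0.044), named after their values were seen, also fell. Rgs16, a regulator of G protein signalling, had 11.20, 11.65 and 10.43 on the control diet against 9.89, 10.02 and 10.24 on high-fat. Control-diet values of Rgs16 were spread, and the gene missed the threshold (log2 -1.05 ± 0.24, adjusted p = 0.0610 in limma). The output list had a median change of -0.19. Without control-diet replicate 1 the calls were 1 higher and none lower in the core list and 2 higher and 2 lower in the output list. The labels give a light period of 12 h but no hour of tissue collection, so a difference in hour between the groups was not tested.

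**Figure D3:**
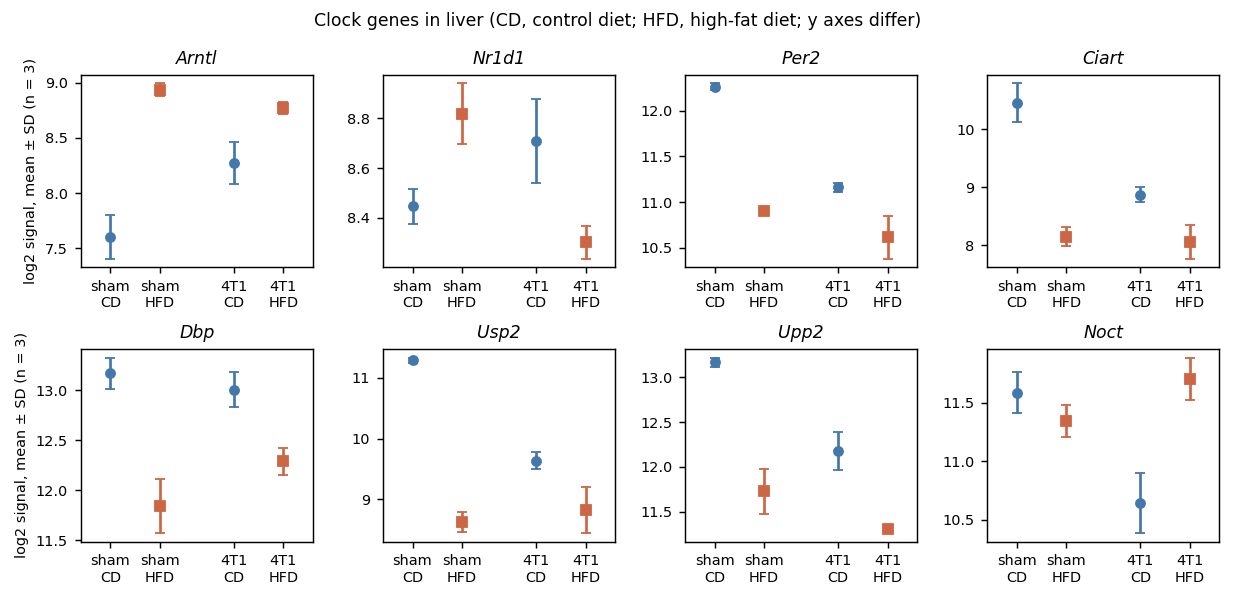
Mean log2 signal ± SD (n = 3 arrays, vertical axes differ) of 8 clock genes in the 4 liver groups, with blue circles for control diet and orange squares for high-fat diet. In sham liver the diets lie farther apart than in 4T1 liver for Arntl, Per2, Ciart and Usp2, whereas Noct separates by diet in 4T1 liver and Nr1d1 moves the opposite way in the 2 kinds of liver.

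Cish, a STAT5 target that dampens growth hormone signalling, rose in 4T1 liver. Its promoter is shown because the gene's diet change was opposite in sham liver. It is from RefSeq GRCm38.p6 (chr9:107296409-107296708, plus strand), with capitals on 2 matches of TTCNNNGAA, the element of STAT factors, at 0 and 11 from the start. This motif reads the same on both strands and occurs in 8.3% of the 32851 promoters, which again describes letters only.
Cish: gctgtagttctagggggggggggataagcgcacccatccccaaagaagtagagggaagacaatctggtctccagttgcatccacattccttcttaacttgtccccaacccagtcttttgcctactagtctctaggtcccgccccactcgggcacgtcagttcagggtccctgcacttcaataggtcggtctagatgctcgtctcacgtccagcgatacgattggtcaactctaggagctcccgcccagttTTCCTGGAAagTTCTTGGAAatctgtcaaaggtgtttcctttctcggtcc

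Signals of Cish were 10.04, 9.90 and 10.06 on the control-diet arrays and 11.03, 10.63 and 10.47 on the high-fat arrays. The diets did not overlap, and Cish rose 1.63-fold (log2 0.71 ± 0.12, limma adjusted p = 0.0175, and 0.0852 without control-diet replicate 1). Within the growth hormone and IGF list, 2 of 16 genes rose and 1 fell, against 1.30% and 1.62% of all genes (median -0.013). Igfbp2, a binding protein for insulin-like growth factors, rose by log2 0.41 ± 0.077 (adjusted p = 0.0263). Socs3, the suppressor that STAT3 induces, had 10.56, 10.52 and 10.65 on the control diet against 10.32, 9.99 and 10.14 on high-fat and fell 1.35-fold (adjusted p = 0.0231). Egfr, the receptor of epidermal growth factor, was lower without overlap but missed the threshold (log2 -0.54 ± 0.14, adjusted p = 0.0841). Another probe of Egfr was called. Without control-diet replicate 1 only Igfbp2 of this list was called, and without control-diet replicate 3 its adjusted p was 0.103. Of the 6 omissions of an array, Igfbp2 and Socs3 lost their calls in 4 each and Cish in 3. The Igfbp2 call was also lost with median scaling, which kept those of Cish and Socs3.

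Among genes of inflammation, a few acute phase members rose. Saa3, an inflammatory serum amyloid A made by macrophages and fat cells as well as liver, had 9.04, 9.16 and 9.23 on the control-diet arrays and 10.15, 10.43 and 10.41 on the high-fat arrays. It rose 2.27-fold (log2 1.19 ± 0.080, limma adjusted p = 0.000196), whereas the main hepatic forms Saa1 (log2 0.34 ± 0.20, adjusted p = 0.421) and Saa2 (adjusted p = 0.996) overlapped between the diets. Ubd, a ubiquitin-like modifier induced by interferon and tumour necrosis factor, had 7.59, 7.49 and 7.57 on the control diet against 8.81, 8.54 and 9.37 on high-fat and rose 2.56-fold (adjusted p = 0.00355). Only 2 of its 3 control-diet signals were above background, and its log2 change was 1.36 as deposited and 3.04 with background correction. Lcn2, a lipocalin that starves bacteria of iron, had 14.01, 14.24 and 14.03 on the control diet against 14.60, 14.56 and 14.78 on high-fat and rose 1.47-fold (adjusted p = 0.00634, and 0.0502 without control-diet replicate 1). Over 27 acute phase genes, 2 rose and 1 (Socs3) fell, against 1.30% and 1.62% of all genes, with a median change of 0.019. The abundant acute phase proteins haptoglobin (Hp, log2 0.095, adjusted p = 0.435) and Orm2 (0.34, 0.123) were not called, though 1 of the 2 other probes of Hp was. Saa3 alone of the list was called without control-diet replicate 1.

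The neutrophil list leaned upward with few calls, where 1.30% of all genes were called higher. Of 34 measured genes, 31 were higher on the high-fat diet and 2 were called, Lcn2 and Pglyrp1, a peptidoglycan recognition protein of granules (1.32-fold, limma adjusted p = 0.0184, and 0.0733 without control-diet replicate 3). The list's median change was 0.17, against -0.0021 over all genes, and 12 members lay above without overlap, against 10.7% of all genes. Summed signal of the list was 215900 to 218700 on the control-diet arrays and 232200 to 259100 on the high-fat arrays. Among the defining markers, S100a9 had 13.95, 13.94 and 14.07 on the control diet against 14.19, 14.20 and 14.36 on high-fat (adjusted p = 0.0584), Mpo a log2 change of 0.34 (adjusted p = 0.0942) and S100a8 one of 0.062 (adjusted p = 0.762). Depending on the array left out, 1 to 9 of the list were called higher, the fewest without control-diet replicate 1, and none after background correction. The part of granulocytes in the rise of Lcn2, which hepatocytes also make, was not tested.

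None of 22 monocyte and macrophage genes, 19 Kupffer cell genes, 14 T and NK cell genes or 10 B and plasma cell genes was called, with medians of 0.036, -0.018, 0.020 and 0.025. Of 14 genes of MHC class II and dendritic cells, 2 rose, again against 1.30% of all genes. They were Cd74, the invariant chain (11.61, 11.60 and 11.57 on the control diet against 11.97, 12.00 and 12.17 on high-fat; limma adjusted p = 0.00452), and H2-Eb1, an MHC class II β chain (log2 0.27 ± 0.052, adjusted p = 0.0306, and 0.137 without control-diet replicate 1). The other 2 kept probes of Cd74 were not called, and the dendritic cell markers Flt3 and Xcr1 were not above background on any array. Among 37 interferon-stimulated genes, Oasl1 alone was called and fell (log2 -0.27 ± 0.054, adjusted p = 0.0352, and 0.153 without control-diet replicate 1), where 1.62% of all genes fell. In that list 28 genes were lower (median -0.051). Complement and coagulation had 2 of 42 genes higher, the protease C1s1 (log2 0.52, adjusted p = 0.0315) and Serpinf2, antiplasmin (0.26, 0.0274), and neither was called without control-diet replicate 1.

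In the bile duct and simple epithelium list, 3 of 12 measured genes rose, against 1.30% of all genes (median 0.058). Sox9, a transcription factor of bile ducts, rose by log2 0.50 ± 0.10 (limma adjusted p = 0.0341), and Krt8, a keratin of hepatocytes and ducts, by 0.41 ± 0.077 (adjusted p = 0.0273). Prom2, a membrane glycoprotein of epithelia, had 7.33, 7.37 and 7.27 on the control diet against 7.91, 8.08 and 7.87 on high-fat. Its probe was not above background on any control-diet array and was above it on all 3 high-fat arrays, which puts it at least 1.33-fold higher with high-fat feeding (adjusted p = 0.00190), with the dim side set to the higher of its own signal and the lowest signal above background of each array. Another probe of Prom2 was above background on 1 control-diet array. Of the defining duct markers beside Sox9, Krt7 was above background on 5 arrays (log2 -0.053, adjusted p = 0.754), and Krt19 and Epcam on none. Summed signal of the list was 8794 to 9841 on the control diet and 10900 to 12330 on high-fat. That sum weights bright genes most, such as Krt18 (mean log2 11.02 on the control diet and 11.31 on high-fat), which was not called. The mean log2 signal of the members was 8.501 to 8.575 and 8.681 to 8.696, with 8 members higher and 4 lower. Prom2 alone was called without control-diet replicate 1, but its probe passed the detection filter through the high-fat arrays alone. The filter and the call of Prom2 thus rest on the same difference.

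Zinc transport had 2 genes higher and 1 lower among 20, against 1.30% and 1.62% of all genes. Slc39a5, a basolateral zinc importer, had 7.94, 8.06 and 8.07 on the control diet against 7.58, 7.66 and 7.53 on high-fat and fell (log2 -0.43 ± 0.055 as deposited and -1.33 with background correction, limma adjusted p = 0.00432). Slc39a4 (0.25, 0.0491) and Slc39a8 (0.24, 0.0443), importers of the same family, rose by small amounts, and neither was called without control-diet replicate 1. Stab2, a scavenger receptor of sinusoidal endothelium, rose (log2 0.34 ± 0.050, adjusted p = 0.00885, and 0.0590 without control-diet replicate 1) while no other of the 24 endothelial genes was called. From the small adipocyte and pancreas lists, Car3, a carbonic anhydrase that liver also makes, rose 1.52-fold (adjusted p = 0.0104, and 0.0525 without control-diet replicate 1), and Cela1, an elastase, rose 1.29-fold (adjusted p = 0.0153, and 0.0559 without control-diet replicate 3). The defining adipocyte markers Lep (log2 -0.030, adjusted p = 0.849) and Adipoq (0.034, 0.808) were above background on 6 and 3 arrays and were not called, and Plin1 and the acinar markers Ctrb1, Prss2 and Cpa1 were above background on none.

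Single calls came from the lists of the ATF4 response (Atf4 itself, log2 0.33, limma adjusted p = 0.0491), of endoplasmic reticulum chaperones (Herpud1, an ER-associated degradation factor, -0.27, 0.0353), of methionine and urea metabolism (Sardh, sarcosine dehydrogenase, 0.39, 0.0213) and of cytokines and receptors (Tlr5, the flagellin receptor, -0.28, 0.0271). None of the 4 was called without control-diet replicate 1, and over all genes 2.92% were called. No call fell among 61 oxidative phosphorylation genes (median -0.043, 42 of them lower), 46 cytosolic ribosomal proteins (-0.047), 30 mitotic cell cycle genes (0.078, 28 of them higher), 30 stellate cell and matrix genes (0.0080), 23 heat shock proteins (-0.021) or 21 hypoxia-responsive genes (0.00090). Erythroid, platelet and eosinophil lists had no calls either. Many of the small changes in these lists rested on the full set of arrays. Of 79 called genes among those chosen by the naming rule, 34 were called whichever array was left out. Those that lost the call in at least 5 of the 6 omissions were Atf4, H2-Eb1, Herpud1, Mup3, Nr1d1, Sardh, Serpinf2, Slc39a4, Slc39a8, Sox9 and Tlr5. Of the called genes described here, those also called after background correction were Aatk, Acacb, Acot3, Aldh1a1, Cdkn1a, Chrna4, Cyp17a1, Cyp2c54, Dbp, Dct, Dnaic1, Elovl6, Gpc1, Gstt3, Hamp2, Hectd2os, Hsd3b5, Lrtm1, Mug2, Noct, Pnpla3, Prom2, Saa3, Scd1, Serpina7, Slc17a8, Slc39a5, Sult2a8, Sult3a2, Ubd and Upp2. This is with correction of the 12 liver arrays. With correction of the 6 arrays alone, the genes of the naming rule still called were Aatk, Acacb, Acot3, Chrna4, Cyp17a1, Dnaic1, Gpc1, Hsd3b5, Prom2, Saa3, Scd1, Slc39a5 and Ubd. In all, 75 of the 304 called genes were on at least 1 of the 46 lists.

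**Figure D4:**
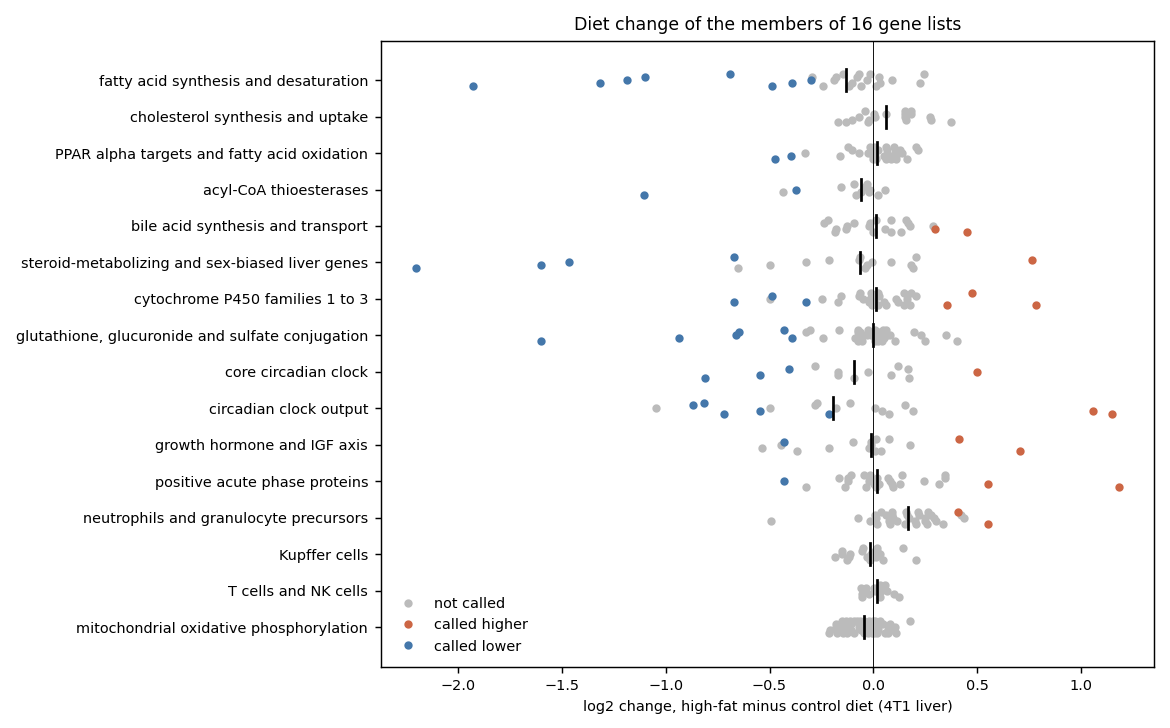
Log2 change (high-fat minus control diet, horizontal axis) of every measured member of 16 of the 46 gene lists in 4T1 liver, with blue points called lower, orange points called higher, grey points not called and black bars at the list medians. Fatty acid synthesis and steroid metabolism reach farthest to the left, and most neutrophil points lie right of 0 without being called.

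Sham-injected liver had the same 2 diets without 4T1 cells. On the same 10411 genes, diet changed 739 in sham liver (7.10%, 372 or 3.57% higher and 367 or 3.53% lower). The sham count was 468 without high-fat replicate 1 and 476 without control-diet replicate 2. No array was shared between the comparisons, and 149 genes were called in both, which is 49% of the 4T1 calls and 20.2% of the sham calls. Of these 149 genes, 145 moved the same way. The 2 kinds of arrays differed in more than injection, since 34.01 to 36.12% of probes were above background on sham arrays against 40.4 to 41.47% on 4T1 arrays, and the replicate SD was 0.1314 and 0.12 in the sham groups. Array batch and injection cannot be told apart, because the labels name no slide. Scd1 changed by -2.02 ± 0.14 in sham liver and -1.93 ± 0.11 in 4T1 liver, and Cyp17a1 by -2.28 ± 0.18 and -2.20 ± 0.098 (log2 ± SE). Their interactions, the 4T1 change minus the sham change, were 0.088 ± 0.20 (limma adjusted p = 0.895) and 0.075 ± 0.25 (adjusted p = 0.926), which were not called. Other lipid genes had values farther apart. Thrsp had -2.04 in sham and -1.32 in 4T1 liver (interaction adjusted p = 0.465), Acly -0.097 and -0.39 (0.687) and Acot4 -1.10 and -0.37 (0.00308), of which the difference was called for Acot4 alone.

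The diet change itself differed between 4T1 and sham liver for 189 genes (1.82%), 78 with a more positive change in 4T1 liver (0.749%) and 111 with a more negative one (1.07%). The split depended on scaling, with 65 more positive and 23 more negative under median scaling, and the count fell to 95 without 4T1 control-diet replicate 3 and to 102 without 4T1 high-fat replicate 2. Several clock genes were among them. Usp2 fell by 2.68 in sham liver and by 0.82 in 4T1 liver on the log2 scale (interaction 1.86 ± 0.19, limma adjusted p = 9.76e-05). Ciart fell by 2.31 and 0.81 (1.498 ± 0.21, 0.00148), and Per2 by 1.37 and 0.55 (0.82 ± 0.12, 0.00243). Arntl rose by 1.33 in sham liver, where 4 of 6 arrays were above background, and by 0.50 in 4T1 liver (-0.83 ± 0.14, 0.00495). Per1 (sham -1.02, 4T1 -0.025), Per3 (-1.03, -0.092) and Clock (0.80, 0.12) also had a called difference. Of the 13 core clock genes, 8 had a called interaction, 4 in each direction, and of the 18 output genes 6 had. The output list's median change was -0.75 in sham liver and -0.19 in 4T1 liver.

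The levels of these genes are as follows. On the control diet, the mean log2 signal of Usp2 was 11.29 ± 0.044 in sham and 9.63 ± 0.14 in 4T1 liver (mean ± SD, n = 3), and on the high-fat diet it was 8.62 ± 0.17 and 8.82 ± 0.38. Per2 had 12.27 ± 0.036 and 11.16 ± 0.045 with control feeding and 10.90 ± 0.028 and 10.61 ± 0.23 with high-fat feeding. For both genes, sham and 4T1 arrays thus lay farther apart on the control than on the high-fat diet.

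Other genes had diet changes of opposite sign in the 2 kinds of liver, though not each of these changes was called. Cish rose by 0.71 in 4T1 liver and fell by 0.88 in sham liver (interaction 1.59 ± 0.16, limma adjusted p = 5e-05). Its mean log2 signals were 10.40 ± 0.14 and 9.51 ± 0.061 on control and high-fat diet in sham liver and 10.00 ± 0.089 and 10.71 ± 0.29 in 4T1 liver. Nr1d1 fell by 0.41 in 4T1 liver and rose by 0.37 in sham liver (adjusted p = 0.00276 for the difference). Bcl6, a transcriptional repressor known to oppose STAT5 in liver, rose by 1.60 in sham liver, and its 4T1 change of -0.37 was not called (interaction -1.97 ± 0.19, adjusted p = 4.36e-05). Id2, an inhibitor of helix-loop-helix factors, rose by 1.14 in sham liver and had -0.35 in 4T1 liver without a call (adjusted p = 0.00858 for the difference).

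A further set had a larger change, of either sign, in 1 kind of liver than in the other. Noct rose in 4T1 liver, and its sham change was -0.24 ± 0.10 (interaction 1.30 ± 0.17, limma adjusted p = 0.000797). Hamp2 fell in 4T1 liver against -0.12 ± 0.10 in sham liver (interaction adjusted p = 0.0141), and Serpina7 fell against 0.046 ± 0.13 (adjusted p = 0.0157). In the other direction, Hectd2os rose by 2.55 in sham and 0.64 in 4T1 liver (adjusted p = 5.3e-06), Spon2, a secreted spondin, by 2.15 and 0.56 (adjusted p = 4.02e-05), the 4T1 value having an adjusted p of 0.115 without control-diet replicate 1, and Ppp1r3c, a glycogen-targeting phosphatase subunit, by 1.73 in sham liver with 0.34 in 4T1 liver, which was not called (adjusted p = 4.34e-05). For Saa3 and Ubd the sham values were 0.23 ± 0.56 and -0.39 ± 0.54, and the interaction was not called (adjusted p = 0.580 and 0.249).

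**Figure D5:**
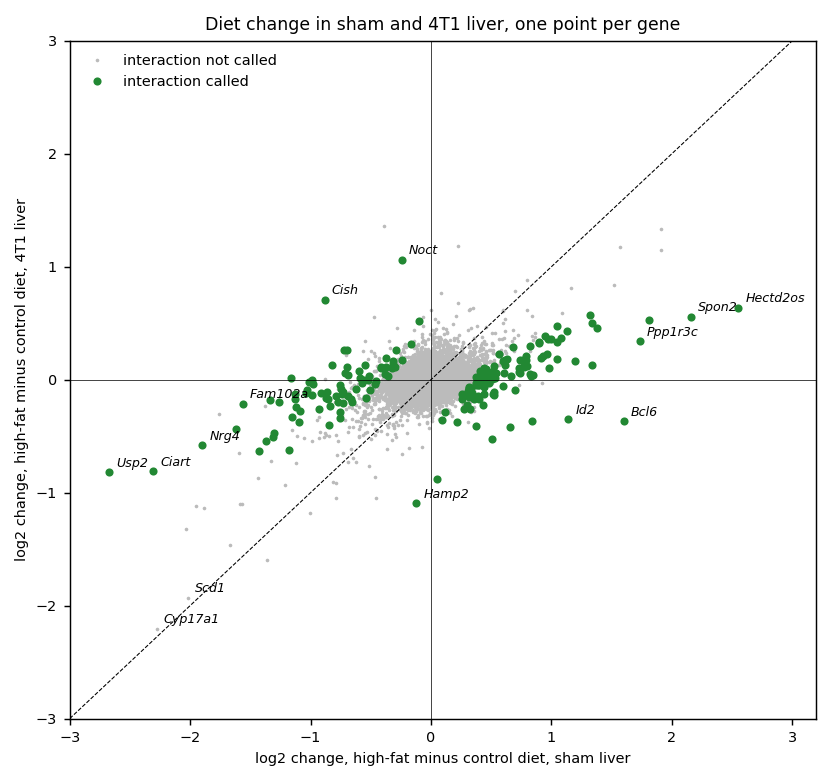
Log2 diet change (high-fat minus control) of each of 10411 genes in sham liver (horizontal axis) and 4T1 liver (vertical axis), with green points where the difference between the 2 was called (189 genes) and a dashed line where both are equal. Scd1 and Cyp17a1 lie near the line, Usp2, Ciart, Hectd2os and Spon2 have larger changes in sham than in 4T1 liver, and Cish, Noct and Bcl6 lie off the line.

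In the lungs of mice in the same 2 groups, none of the 18516 probes passed limma's adjusted threshold, with 1513 (8.17%) at an unadjusted p under 0.05. Of the lipogenic genes called in liver, Thrsp had a lung change of -1.08, Elovl6 of -0.87 and Scd1 of -0.65 on the log2 scale, and Cyp17a1 had -0.15. None of these lung changes was called, and lung values of the other lipogenic genes called in liver are not given. Liver and lung were normalized separately, and the difference between tissues was not tested.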

How the data were processed

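Groups and replicate numbers came from the sample titles, and the members and gene lists were chosen with earlier results of these data known. The deposited log2 values are quantile-normalized per tissue without background correction: 99.9997% of probe and array pairs lay within 0.01 of the log2 of quantile-normalized raw signals, and 3 pairs did not. The deposited intensity values are bead signals that were not normalized, and GenomeStudio 2009.2 is the software that the submitters' processing notes name. Detection p-values, per the file headers, set the filter (under 0.05 on at least 3 of the 6 arrays).

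Symbols came from the platform annotation, updated through Entrez identifiers for 34807 of 34885 probes with 1 symbol and through accessions for 11, with 67 kept as given. Another 18 probes had several symbols and 10378 had none. Of the kept probes, 2645 lacked a single symbol, and 58 of these were called and are not named. Limma 3.58.1 (lmFit, eBayes) in R 4.3.3 was fitted on the 6 arrays, with Benjamini-Hochberg adjustment over all 18516 kept probes. It was tested on simulated data. Alternatives were neqc (background correction with an offset of 16), median scaling, all 12 liver arrays, other filters, an intensity trend, a replicate block and leaving out each array. The number of arrays limits the precision.

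Named genes were the 15 largest called changes each way, the 5 largest called interactions each way, up to 4 members of each list and defining markers. Aacs, Acly, Clock, Cyp2c37, Cyp2d40, Cyp7a1, Dbp, Fads1, Fasn, Fkbp5, Gstm2, Hamp, Lpin1, Mup2, Nampt, Per1, Per3, Pnpla3, Rgs16, Saa1, Saa2, Srebf1 and Sult1c2 were named after their values were seen. The promoters and motifs shown were chosen the same way, and Lonrf3, Nr1d2, Tef and Tspan4 are named only for their promoter letters. Fold changes are deposited-scale values unless stated.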

Additional observations from a re-analysis of the deposited data

Results flagged for a closer look

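The diet change differed between 4T1 and sham liver for the genes named here, by the interaction term of limma over 12 liver arrays with Benjamini-Hochberg adjustment. Values are the 4T1 minus the sham change on the log2 scale. More positive in 4T1 liver were Usp2 (1.86), Cish (1.59), Ciart (1.498), Noct (1.30) and Per2 (0.82). So were Fam102a (1.35), Nrg4, a neuregulin (1.32), the thioesterases Acot1 (1.19) and Acot4 (0.73), Tk1, thymidine kinase (0.82), C1s1 (0.62) and Gpt2, an alanine aminotransferase (0.60). Per1 (0.99), Per3 (0.94), Nampt (0.52) and Cyp7a1 (1.18), named after their values were seen, were more positive too. Fam102a had -1.56 in sham and -0.21 in 4T1 liver, and Nrg4 had -1.90 and -0.58.

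More negative in 4T1 liver were Bcl6 (-1.97), Hectd2os (-1.92), Spon2 (-1.60), Id2 (-1.49), Ppp1r3c (-1.39), Hamp2 (-0.97), Serpina7 (-0.93), Arntl (-0.83) and Nr1d1 (-0.78). The rest were Chka, choline kinase (-0.92), Cela1 (-0.61), Ndrg1, a stress-responsive gene (-0.58), Abcb11 (-0.52) and, named after its values were seen, Clock (-0.68). Array batch and injection cannot be told apart in these values.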

How the results depend on the processing

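No called change or called interaction of a gene chosen by the naming rule changed sign under an alternative run. The balance of calls did move: with median scaling the interaction went from mostly more negative to mostly more positive, and 11 of the 46 list medians, all near 0, changed sign (among them PPARα targets, acute phase proteins and complement). Of the diet effect in 4T1 liver (304 genes), 77 genes were called after neqc on the 12 liver arrays, 71 of them among the 304, 26 after neqc on the 6 arrays (65.4% higher), 157 with all 12 liver arrays in the fit and 188 with replicate number as a block (84 higher, 104 lower). Median scaling gave 337 (33.2% higher, against 44.4%), detection on all 6 arrays 283, no filter 313 and the intensity trend 287. Leaving out 1 array gave 82 to 446. The interaction (189 genes) had 70 calls after neqc, 88 with median scaling (73.9% higher, against 41.3%), 91 with the block, 170 with array weights, and 95 to 270 without 1 array. The sham effect (739) had 258 after neqc, 525 with the block and 468 to 684 without 1 array. Same-numbered arrays of the 2 diets did not deviate together (correlations of -0.00439, 0.0285 and -0.19 in 4T1 liver). So few arrays cannot exclude that the numbers pair the samples, and the labels name no pairing. The block result is given only here. Values of single named genes stayed on their side of the threshold in 2786 of their alternatives, lost the call in 315 and gained it in 63. Of the 30 most changed genes, 26 were called in every omission of an array and 9 in every alternative run. The cause of these differences was not tested.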
